A study of Drosophila melanogaster with 2 samples.

Results

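The genes examined were the 51 protein-coding genes of Drosophila melanogaster whose symbol starts with eIF or eEF and a number, out of 13968 protein-coding genes on the chromosome arms in Ensembl release 115. They comprised 44 initiation factor genes (eIF) and 7 elongation factor genes (eEF). The data map where CG14667, a protein with zinc fingers, sat in the genome. Whole embryos of 0 to 24 h from a transgenic strain that makes a fusion of CG14667 with eGFP were used for chromatin immunoprecipitation with an anti-GFP antibody and sequencing. There were 2 biological replicates of this 1 group, both of the same strain and recorded as separate samples, and no second genotype, stage or treatment. All embryonic tissues and stages were mixed, so a peak has no cell type.

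Translation initiation brings the initiator tRNA and the small ribosomal subunit to the capped end of an mRNA, finds the start codon and joins the large subunit. Elongation factors then deliver aminoacyl-tRNAs, help form peptide bonds and move the ribosome along. Most of these factors are needed in every growing cell, while several eIF4E, eIF4G and eIF3 genes are paralogs of a more widely used copy.

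A gene was taken as bound when the summit of a peak in the authors' conservative list lay within 500 bp of any of its annotated transcription starts. The DNA at 8 places is shown first, to let the base composition and the short elements discussed later be seen. The sequences are from the RefSeq Release 6 assembly, whose coordinates are those of dm6, read 5′ to 3′ on the strand of the gene. Each covers 50 bp to either side of the summit, except that of eIF5B. That one is 29 bases next to its summit, leaves out the summit base and does not show the base composition there. The places shown do not stand for all bound members, of which 4 of 9 had CGATA at the summit. Capitals mark CGATA or its reverse complement TATCG, the element of the boundary protein BEAF-32, which also lies inside TATCGATA, the DRE bound by DREF. The first 4 genes were in the conservative list, the next 3 only in another thresholded list, and eIF4EHP only in the ranked lists.
eEF1gamma, chr3R:29220086-29220186, plus strand: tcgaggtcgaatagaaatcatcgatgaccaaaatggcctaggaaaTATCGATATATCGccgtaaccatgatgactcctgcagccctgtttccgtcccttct
eIF1, chr3L:3223015-3223115, plus strand: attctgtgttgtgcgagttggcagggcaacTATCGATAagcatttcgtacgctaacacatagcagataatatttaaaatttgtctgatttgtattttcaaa
eIF5B, chr3L:3460751-3460779, minus strand: gagcaccagaggCGATAaatggttcccgt
eIF3h, chr2L:5052419-5052519, minus strand: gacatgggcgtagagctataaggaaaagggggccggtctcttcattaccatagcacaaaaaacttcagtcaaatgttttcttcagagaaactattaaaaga
eIF3a, chr3R:4433889-4433989, minus strand: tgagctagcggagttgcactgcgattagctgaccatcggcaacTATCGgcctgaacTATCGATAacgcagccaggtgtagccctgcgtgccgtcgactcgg
eIF2D, chr3R:29151833-29151933, minus strand: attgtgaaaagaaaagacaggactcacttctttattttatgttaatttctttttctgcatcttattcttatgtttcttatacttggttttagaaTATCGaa
eEF1delta, chr2L:10232359-10232459, plus strand: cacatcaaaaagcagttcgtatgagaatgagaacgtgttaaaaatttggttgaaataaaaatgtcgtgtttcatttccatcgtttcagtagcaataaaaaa
eIF4EHP, chr3R:24109128-24109228, minus strand: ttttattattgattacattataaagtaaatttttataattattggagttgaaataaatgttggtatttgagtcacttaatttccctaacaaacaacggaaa

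The conservative list placed a summit at the start of 9 of the 51 translation factor genes, or 17.6%, where the background over all protein-coding genes was 12.6% (1755 of 13968). The 95% Wilson interval of the 9 genes' share, which covers counting error only, ran from 9.57 to 30.3% and so included the background. The 9 were the initiation factor genes eIF6, eIF3c, eIF5B, eIF3h, eIF1 and eIF3m and the elongation factor genes eEF5, eEF1gamma and eEF1alpha1. Of the 44 initiation factor genes 6 were bound (13.6%, interval 6.4 to 26.7%), close to the background. Of the 7 elongation factor genes 3 were bound (42.9%, interval 15.8 to 75%). This interval lay above the background of 12.6%, but it covers counting error only, for 7 genes chosen with earlier results known. The intervals of both families overlapped, and no test between the families was made, since genes are not replicates.

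The other lists gave nearly the same genes. All 4 lists come from the same 2 replicates, so their agreement is not separate evidence. The other thresholded list of the series had 11 members bound, adding eIF3a and eIF2D to the 9, against a background of 13.6%. The own list of replicate 1 had 10 (background 11.4%), without eIF3m and with eIF2D and eEF1delta. The own list of replicate 2 had the same 9 as the conservative list (background 9.62%). In all 4 lists 8 of the 9 were bound, or 88.9%, and of all 1755 bound protein-coding genes 65.5% were.

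**Figure D1:**
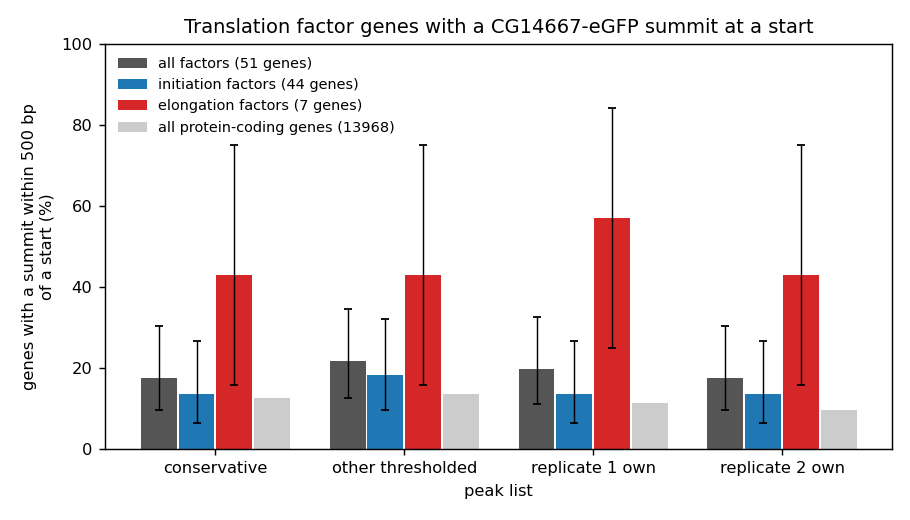
Percentage of genes (vertical axis) with a summit within 500 bp of a start, in each of the 4 thresholded peak lists (horizontal axis), for all 51 factors, the 44 initiation factors, the 7 elongation factors and all 13968 protein-coding genes. Error bars are 95% Wilson intervals over genes, and those of the initiation and elongation factors overlap in every list.

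The strongest place was the start of eIF6 (FBgn0034915), whose product binds the large ribosomal subunit and keeps it from joining the small one too early. Its peak lay on 2R at 23850257 to 23850544, and the signals of replicates 1 and 2 were 621 and 644. The pooled signal was 1263, rank 13 of the 3083 conservative peaks. The peak was high in both replicates to nearly the same degree, with a ratio of replicate 1 to replicate 2 of 0.965. The summit lay 104 bp upstream of the single eIF6 start. It fell in an exon of the antisense RNA gene asRNA:CR45928, 75 bp downstream of its start on the opposite strand, and in an intron of ytr. The peak therefore cannot be assigned to eIF6 alone.

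The remaining initiation factor genes had much lower signals. At eIF3c (FBgn0034258), a core subunit of the eIF3 scaffold on the small subunit, the signal was 77.8 in replicate 1 and 110 in replicate 2, and the pooled signal was 189 (rank 741). This peak, on 2R at 17665499 to 17665834, had its summit 11 bp upstream of a start, the closest of all members. Replicate 2 was the higher here, as at 4 of the 8 peaks found in both own lists. The log2 ratio of replicate 1 to replicate 2 was -0.50, and 4.78% of the 837 start peaks in both own lists had a ratio as low.

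The peak of eIF5B (FBgn0026259), the GTPase that promotes subunit joining, had signals of 76.7 in replicate 1 and 82.3 in replicate 2 and a pooled signal of 164 (rank 929). Both replicates were alike here, and their summits were 9 bp apart. The peak lay on 3L at 3460580 to 3460915 and covered the downstream one of the gene's own 2 starts. The summit lay between these starts, in the 5′ UTR of the upstream transcript and 145 bp upstream of the downstream start.

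The eIF3 subunit gene eIF3h (FBgn0022023) had signals of 85.6 in replicate 1 and 63.9 in replicate 2, with a pooled value of 154 (rank 1000). Its summit, in the peak on 2L at 5052301 to 5052636, was the only one of the 9 downstream of the nearest start. It lay 311 bp from that start, in an intron of the gene. It was also 374 bp upstream of a start of senju on the other strand. For eIF1 (FBgn0035423), which guards the accuracy of start codon choice, replicate 1 had 59.0 and replicate 2 had 38.5, and the pooled signal was 103 (rank 1791). This peak on 3L at 3222897 to 3223232 lay 276 bp upstream of eIF1 and 105 bp upstream of the ribosomal protein gene RpL28, which runs the other way. When a peak counted for a single gene, the one whose start was closest, it went to RpL28, and eIF1 was not counted.

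The weakest was eIF3m (FBgn0033902), another eIF3 subunit gene. In replicate 1 it was a candidate of the ranked list only, at 34.9, and in replicate 2 it passed at 37.2. Pooled, the signal was 63.1 (rank 2894) with a global IDR of 0.00444, the highest of the 9. The replicates' summits were 80 bp apart, the largest distance among the 9 peaks. The summit, in the peak on 2R at 14164680 to 14165015, was 23 bp upstream of an eIF3m start and 203 bp upstream of CG8323 on the opposite strand.

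Of the elongation factor genes, eEF5 and eEF1gamma had the strongest peaks of the 9 after eIF6, and eEF1alpha1 was below eIF3c, eIF5B and eIF3h. The product of eEF5 (FBgn0285952), also known as eIF5A, carries the modified amino acid hypusine and helps the ribosome at peptide bonds that form slowly. Its peak on 2R at 24057667 to 24057873 reached 247 and 124 in replicates 1 and 2, and 374 pooled (rank 224), with the summit 34 bp upstream of a start. The signal in replicate 1 was 1.99 times that in replicate 2, a log2 ratio of 0.99. The median over the 837 start peaks was 0.20 (SD 0.41), and 3.11% of them had a ratio as high. The peak was 207 bp wide in replicate 1 and 296 bp in replicate 2.

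The gene eEF1gamma (FBgn0029176) encodes a subunit of the complex that reloads eEF1alpha with GTP. Its peak on 3R at 29220055 to 29220217 was also higher in replicate 1, with 146 in replicate 1 and 81.7 in replicate 2, a ratio of 1.79 that 5.73% of start peaks reached. The pooled signal was 217 (rank 589), and the summit lay 36 bp upstream of a start. At eEF1alpha1 (FBgn0284245), the GTPase that delivers aminoacyl-tRNA, the replicates were closer, with 55.9 in replicate 1 and 62.5 in replicate 2 and a pooled signal of 110 (rank 1631). This summit, in the peak on 2R at 11891861 to 11892196, lay in an intron of the gene and 93 bp upstream of the nearest of its 4 starts. No start of another gene was within 500 bp of any of these 3 summits.

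**Figure D2:**
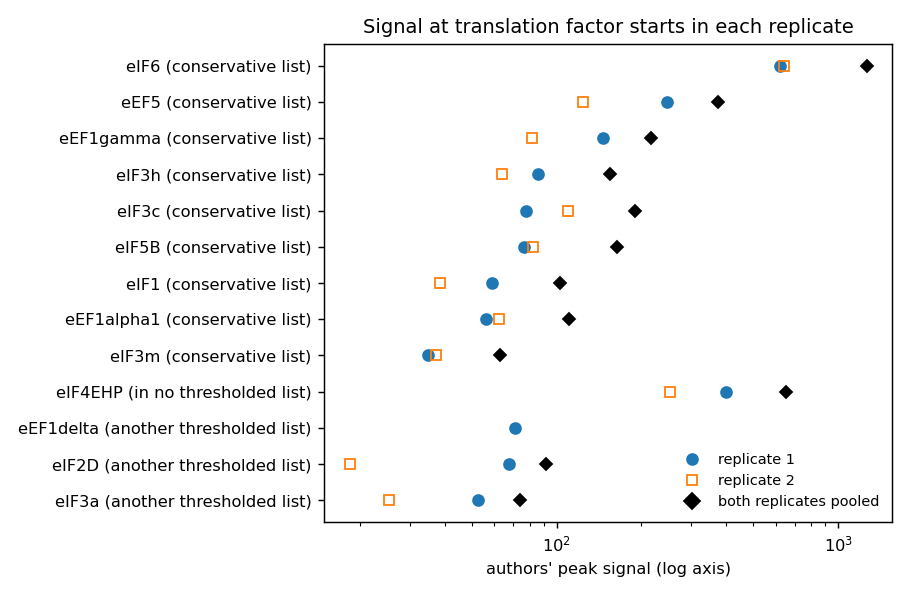
The authors' peak signal on a log axis for the 9 members of the conservative list, for eIF4EHP and for the 3 members found only in another thresholded list, with replicate 1, replicate 2 and the pooled value as separate points. Values of eIF6 in both replicates lie above 600, and those of eIF2D and eIF3a in replicate 2 lie below 30; eEF1delta has no candidate within 500 bp of its start in replicate 2 or in the pooled ranked list.

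The 9 peaks were then set beside all peaks at starts for their values in the replicates. Of the 9, 8 overlapped a peak in both own lists (88.9%, against 64.2% of the 1304 peaks at protein-coding starts). The log2 ratios of the replicates had a median of 0.19 (SD 0.54, 8 peaks), and the 837 start peaks of both lists had one of 0.20. The replicates' summits were a median of 14.5 bp apart, against 18.0 bp over all start peaks. The pooled signals ranged from 63.1 to 1263 with a median of 164, and the median over all start peaks was 133.

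**Figure D3:**
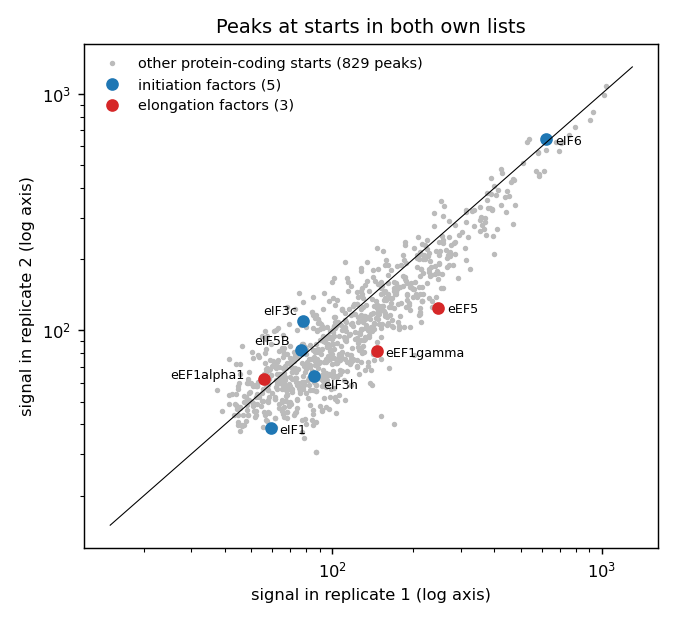
Signal in replicate 1 (horizontal, log axis) against replicate 2 (vertical, log axis) for the peaks at protein-coding starts that overlap both replicates' own lists; the line marks equal signals. Of the 8 translation factor peaks, eEF5 and eEF1gamma lie farthest below the line and eIF3c farthest above it.

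A further member met the authors' limit on the IDR, the irreproducible discovery rate, and was in no thresholded list. The gene eIF4EHP encodes a cap-binding protein that represses chosen mRNAs, among them caudal and hunchback in the fly embryo. A candidate on 3R at 24109025 to 24109363 reached 401 and 252 in replicates 1 and 2 and a pooled signal of 652, higher than that of every bound member but eIF6. It would have ranked 72 in the conservative list. Its global IDR was 1e-05 in the pooled ranked list and in both replicates' ranked lists, and the replicates' summits lay 2 and 0 bp from the pooled one. The summit was intergenic, 218 bp upstream of eIF4EHP and 158 bp upstream of CG18428 on the other strand. It was one of 88 candidates on the arms that met the limit of 0.01 and were missing from the conservative list, of which 46 were on 3R, and the fifth strongest of them. The next such candidate on the arm was 218033 bp away. The listings name a further input for the thresholded lists that was not used here, and its part in this result was not tested. With all passing candidates counted, 10 of 51 members and 12.8% of all protein-coding genes had a summit at a start.

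The members eIF2D, eIF3a and eEF1delta were in only 1 or 2 of the thresholded lists. At eIF2D, a factor that can deliver tRNA to the ribosome outside the main pathway, the signals were 67.7 and 18.4 in replicates 1 and 2 and 91.5 pooled, with the summit 89 bp upstream of the start and a global IDR of 0.681 in the ranked list behind the conservative list. At eIF3a, the largest eIF3 subunit, it was 52.4 and 25.3 in replicates 1 and 2 and 74.0 pooled. The eIF3a summit was 44 bp upstream of the start, and a start of CG1074 was also within 500 bp. The global IDR of the eIF3a candidate was 0.0196, over the limit of 0.01. In the ranked lists of replicates 1 and 2 it was 0.0115 and 0.742. At eEF1delta, a further exchange subunit, replicate 1 had a peak of 70.8 at 98 bp upstream, and no candidate of replicate 2 lay within 500 bp.

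The map of peaks and starts shows that the summits lay mostly just upstream. Of the 9 summits 8 were upstream of the nearest protein-coding start, with a median position of -36 bp; over all 1304 start peaks it was 86.0%, with a median of -117 bp. Most peaks had the width that was most common in the list, 336 bp, namely 6 of the 9 (66.7%) and 71.1% of all start peaks. The other 3, at eIF6 (288 bp), eEF5 (207 bp) and eEF1gamma (163 bp), were the 3 with the largest signals. Over all start peaks the median signal was likewise higher at other widths (327) than at 336 bp (106).

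**Figure D4:**
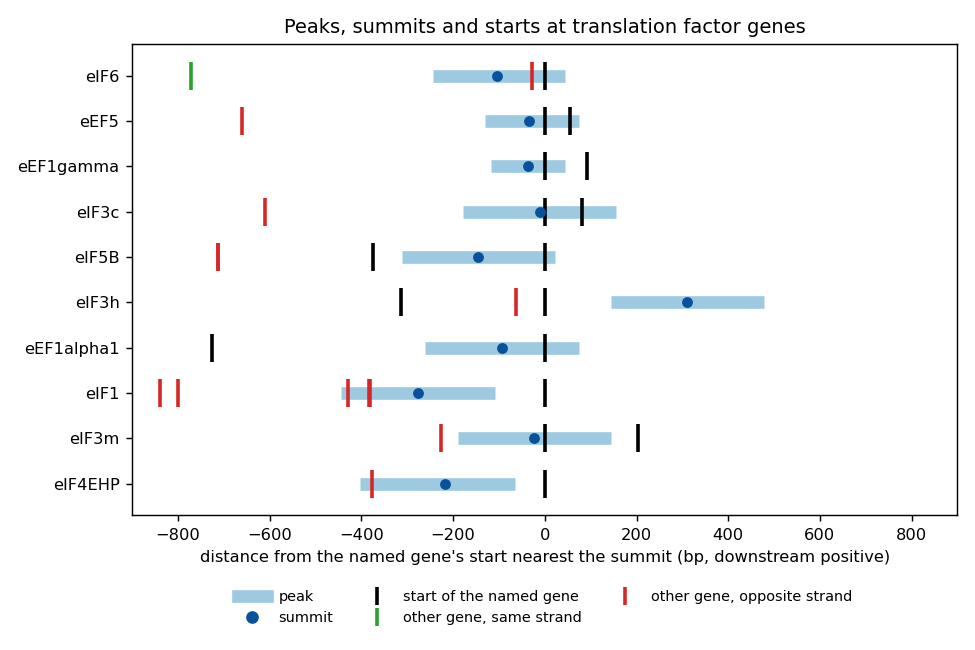
Peak extent, summit and annotated starts within 900 bp at the 9 bound members and at eIF4EHP, as the distance in bp from the start of the named gene nearest the summit, with downstream to the right. The summits of eEF5, eIF1, eIF3c, eIF3m, eIF5B and eIF4EHP lie between a start of the named gene and an upstream start on the opposite strand, and that of eIF3h lies 311 bp downstream.

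Shared promoters were a minority among the bound members. A start of another protein-coding gene lay within 500 bp of the summit at 3 of the 9 (33.3%), eIF1 with RpL28, eIF3h with senju and eIF3m with CG8323, where the share over all 1755 bound genes was 60.8%. This count depended on the distance, with 1 of 7 bound members at 250 bp and 10 of 12 at 1000 bp. Many members had a divergent neighbour, a protein-coding start upstream on the other strand within 1000 bp. This held for 25 of the 51 (49.0%) and for 36.2% of all protein-coding genes. Of these 25 members 7 were bound (28.0%), and of the other 26 members 2 were bound (7.69%). Over all genes the values were 23.2% and 6.54%, so members followed the general pattern.

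The members without a summit are given by complex. None of the 8 genes for eIF2 and eIF2B, which bring the initiator tRNA and reload eIF2 with GTP, had a summit at a start in any of the 4 thresholded lists. A count of 0 of 8 has a 95% Wilson upper limit of 32.4%. None of the 13 eIF4 genes was in a thresholded list, from the cap-binding eIF4E1 and the helicase eIF4A to eIF4B, eIF4G1 and the paralogs eIF4E3, eIF4E4, eIF4E5, eIF4E6, eIF4E7 and eIF4G2, with an upper limit of 22.8%. One of these 13 is eIF4EHP, whose candidate of 652 met the IDR limit, so 1 of 13 had a summit when all passing candidates were counted. Both limits lie above the background of 12.6%, so a shortage was not detectable with so few genes. Of the 16 eIF3 genes 3 were bound (18.8%). The paralogs eIF3d2, eIF3f2 and eIF3g2 were not, and neither were their counterparts eIF3d1, eIF3f1 and eIF3g1. Also unbound were eIF5, the GTPase activator of eIF2, eIF1A, eIF2A, the translocation factor eEF2, eEF1alpha2 and eEF1beta.

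Most unbound members were far from any conservative summit. Over the 42, the nearest summit was 686 to 129807 bp from a start, with a median of 20432 bp, against 15455 bp for all unbound protein-coding genes. Just inside the limit of 500 bp lay eIF3h at 311 bp, and just outside it lay eIF2Bbeta at 686 bp, eIF2Bdelta at 773 bp and eEF1delta at 811 bp. The peak nearest to eIF2Bbeta was the strongest of the list, with a pooled signal of 2115. It lies at the start of Ugalt, whose start and that of eIF2Bbeta are 719 bp apart on opposite strands. At its own start eIF2Bbeta had only a candidate of 22.7 with a global IDR of 0.892.

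Candidates of the ranked list were counted next, whether or not they passed the threshold. In the ranked list behind the conservative list 26 of the 51 members (51.0%) had a candidate summit within 500 bp of a start, where 65.9% of all protein-coding genes did. The 95% Wilson interval of the members' share was 37.7 to 64.1%, below the share of all genes. It again covers counting error only, for genes chosen with earlier results known, and no test was made. Candidates over the IDR limit are included here. In the conservative list the members' share was instead the higher one (17.6% against 12.6%), with an interval that included the background. Apart from the bound members, eIF4EHP, eIF3a and eIF2D, 14 members had a candidate, with pooled signals of 7.63 to 34.2 (median 18.6) and a global IDR of 0.305 to 0.892. The highest of these, at eIF4G2, a gene named after its values were seen, had 19.4 and 17.7 in replicates 1 and 2. The remaining 25 members had no candidate in this list, among them eEF2, eIF4A and eIF4E1. Some of them had one in a replicate's own ranked list. At eIF4A these were 14.2 in replicate 1 and 10.8 in replicate 2, with a global IDR of 0.594 and 0.931. At eEF1beta there was one of 28.0 in replicate 2 (0.318), and at eEF1delta the replicate 1 peak of 70.8.

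The base composition split the bound members. GC content within 50 bp of the summit was compared with that of windows of the same width centred 300 bp to either side. It was higher at the summit than in its flanks at all 3 elongation factor genes, by 12.9 percentage points at eEF5, 9.9 at eEF1alpha1 and 7.43 at eEF1gamma. Among initiation factor genes it was higher at eIF5B (7.92 points) and eIF3c (5.45). It was lower at eIF1 (-6.93 points), eIF3m (-8.91), eIF3h (-14.4) and eIF6 (-25.7). In all, 5 of 9 summits were richer in GC than their flanks (55.6%), where 18.4% of the 1304 summits near protein-coding starts were, and the median difference was 5.45 points against -12.9 (quartiles -20.8 and -3.47). With windows of 25 bp to either side the members' median was -0.98 points, so its sign depended on the window. The exact summit mattered too: at eIF3c the difference was 5.45 points at the summit of replicate 2 and -10.9 at that of replicate 1. At the 35 peaks near starts of cytoplasmic ribosomal protein genes, 68.6% of summits were richer in GC, with a median of 5.45 points. One of those 35 peaks is the peak shared by eIF1 and RpL28.

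**Figure D5:**
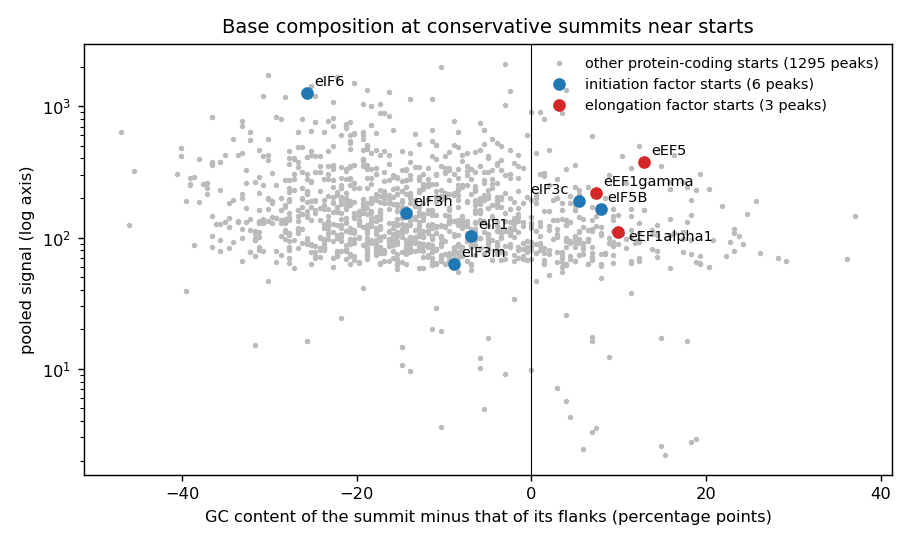
GC content of the summit minus that of its flanks in percentage points (horizontal) against pooled signal (vertical, log axis) for conservative peaks near protein-coding starts. The 3 elongation factor genes lie right of 0, with 7.43 to 12.9 points, and eIF6 lies far to the left at -25.7.

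Short elements were counted in the same 101 bp windows on both strands. The DRE, TATCGATA, was present at 2 of the 9 member summits, eEF1gamma and eIF1, and at 1.85% of the 1295 other summits near protein-coding starts. The BEAF-32 element CGATA, which every DRE contains, was present at 4 of 9 (eEF1gamma, eEF5, eIF1 and eIF5B) and at 18.4% of the others. In the sequences shown above the DRE of eEF1gamma covers the summit base and is followed directly by a further TATCG, and eIF3a also holds a DRE. The letters TATAAA were at 2 of 9 (eIF3m and eIF6) against 26.3%, the initiator letters TCAGT at 2 of 9 (eIF3h and eIF5B) against 16.6%, and the homeodomain core TAATTA at none of 9 against 10.7%. These are matches of letters and do not show that a factor was bound.

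The DRE was also counted in the promoters of all members. Within 250 bp upstream to 50 bp downstream of a start it was found at 15 of the 51 members (29.4%) and at 10.2% of all protein-coding genes. Of the 9 bound members 3 had it (33.3%; eEF1gamma, eIF3c and eIF6), and of the 42 unbound members 12 did (28.6%), among them eIF1A, eIF2alpha, eIF2gamma, eIF4A and eIF4B. Over all genes the shares were 14.2% with a summit and 9.59% without. In the same promoter windows CGATA was found at 34 of 51 members (66.7%) and at 53.1% of all genes.

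Many genes of the translation machinery start at a run of pyrimidines, the TCT initiator. Its core letters CTTT, with the C within 5 bp of an annotated start and on the same strand, were found at 7 of the 51 members (13.7%), at 8.06% of all protein-coding genes and at 56 of 88 cytoplasmic ribosomal protein genes (63.6%). Of the 7 members, eEF5, eEF1alpha1 and eIF3m were bound, and eEF2, eIF4A, eIF3f1 and eIF3i were not. Over all genes 16.3% of those with CTTT at a start were bound and 12.2% of those without. The starts of the 4 unbound members (1 start of eIF4A, which has CTTT at another too) are shown with CTTT in capitals, from 20 bp upstream to 20 bp downstream of the start, on the strand of the gene, because they share this element with bound members.
eEF2, chr2L:21682096-21682136, minus strand: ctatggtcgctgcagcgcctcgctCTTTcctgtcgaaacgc
eIF4A, chr2L:5981744-5981784, plus strand: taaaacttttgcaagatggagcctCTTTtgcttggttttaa
eIF3f1, chr3R:4714162-4714202, minus strand: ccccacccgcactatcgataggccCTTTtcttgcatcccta
eIF3i, chr2L:4967755-4967795, minus strand: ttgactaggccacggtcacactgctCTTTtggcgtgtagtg

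Other genes that act around translation were looked at by function, in lists written for this comparison, and the background over all protein-coding genes was again 12.6% in the conservative list and 9.62 to 13.6% in the others. Of 5 genes for release, rescue and recycling of ribosomes 3 were bound in the conservative list, the release factor gene eRF3 (pooled signal 161), pix (96.5), which encodes the recycling ATPase, and the rescue factor gene HBS1 (93.5). Each of these peaks was shared with another protein-coding start, of SC35, Srp68 and CG12025 respectively, and only eRF3 was bound in the own list of replicate 1, with HBS1 besides in that of replicate 2. Of 13 regulators of initiation and mRNA ends, matched out of 14 listed, 2 were bound, larp (108) and mxt (70.0). Thor, the fly 4E-BP, had a peak of 90.5 in the other thresholded list and one of 56.2 in the own list of replicate 1, and pAbp had one of 65.8 only in replicate 2's own list. Of 7 genes for modification of elongation factors and for the selenocysteine factor, out of 11 listed, 1 was bound, Dph2 (275), an enzyme gene of the diphthamide modification of eEF2. The shares of regulator genes (15.4%) and modification genes (14.3%) were near the background. None of 9 mitochondrial translation factor genes, out of 12 listed, and none of 4 genes for eIF2 kinases and the stress response was bound in any of the 4 lists.

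Among gene groups of the same machinery, 33 of 88 cytoplasmic ribosomal protein genes (37.5%) and 15 of 73 mitochondrial ribosomal protein genes (20.5%) were bound in the conservative list, beside the 17.6% of the translation factor genes. No test between these groups was made. The start of CG14667 itself (FBgn0037317), on 3R, had its nearest conservative summit 3277 bp away.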

How the data were processed

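Peak lists from chromatin immunoprecipitation of CG14667-eGFP in 2 embryo replicates were used. Per the labels and the deposited listings the alignments were on dm6, sonicated fragments were of 200 to 800 bp, and peaks were called against a control; which aligner and peak caller were used is not given in the sources used here. The authors deposited, for each peak, a signal whose scale is not stated, an IDR score of at most 1000 and, in ranked lists, −log10 of the global IDR, with the summit's offset from the peak start in bp. Reads were not used here, so the depth is unknown. The signals are the authors' own values and only describe and rank peaks within a list. Ratios of replicate 1 to replicate 2 use these values without correction for depth, so they do not measure a difference in binding. In the series' ranked lists 8 columns of per-replicate values carry no replicate label and were left out; replicate values come from each replicate's own lists, as the strongest peak overlapping the pooled peak by 1 bp.

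Starts and genes on all 7 chromosome arms, Y included, came from Ensembl release 115. No peak extended past the end of its arm in the reference. Coordinates are 1-based. Transposable elements were left out of neighbouring genes. Shares of genes carry 95% Wilson intervals. The step that joins summits to starts was tested on simulated data. Named genes were every bound member, members in the other thresholded lists, the unbound members with the strongest candidates, genes sharing a summit, and bound genes of the related lists. Members and lists were chosen with earlier results of these data known, so no set test was made. The replicates' own lists stood for leaving out the other replicate; other alternatives changed the list, the distance, the IDR limit, the assignment and the windows. Analyses used Python 3.11.15, pandas 2.3.3, NumPy 2.4.6, SciPy 1.17.1 and matplotlib 3.10.9.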

Additional observations from a re-analysis of the deposited data

How the results depend on the processing

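With any candidate of the ranked list counted, 26 members, 22 initiation factor genes and 9202 of all protein-coding genes had a summit at a start. With the 336 bp peaks left out, an alternative chosen after seeing the data, the counts were 3 (5.88%), 1 (2.27%) and 531 (3.8%). A global IDR of 0.001 or less left 7 members (13.7%), without eIF1 and eIF3m, and 1164 of all genes (8.33%). The number of bound members whose summit lay within reach of another protein-coding start was 1 at 250 bp and 10 at 1000 bp. The median GC difference was -0.98 points with 25 bp to either side. These alternatives admit or remove peaks or change the distance or window, and why the values moved was not tested. For the members as a whole the count was between 7 and 12 under the second thresholded list, the own lists of both replicates, 250 bp (9.74% of all genes), 1000 bp (14.9%) and the nearest gene only (8 members, 15.7%, against 8.79%). No paired analysis was possible because the study has 1 group. Unknown depth limits all signal values.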
